A study of Mus musculus with 9 samples.

Results

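The genes described are those of the MHC class I molecule and of the immunoproteasome, the machinery that makes peptides and presents them at the cell surface. They were taken by name, as H2-K1, H2-D1, B2m, Tap1, Tap2, Tapbp, Psmb8, Psmb9, Psmb10 and Nlrc5. All 10 were found among the 49548 genes of the deposited tables, each on a single row.

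Levels were measured by 3′ mRNA sequencing of synovial fibroblasts (SFs) cultured from ankle joints of 8-week-old mice on a CBA C57BL/6J background. The 3 groups of 3 libraries were WT SFs, SFs of hTNFtg mice, which carry a human TNF transgene and develop arthritis, and hTNFtg SFs given 1 µg/ml infliximab, an antibody to TNF, for 48 hours. WT and untreated hTNFtg SFs are labelled as having no treatment, whereas vehicle is described in the methods. In every group CD45+ cells, which are leukocytes, had been depleted at passage 1, and whether a replicate came from 1 mouse or from pooled mice is not given in the sources used here. The reads were mapped to mm10, the C57BL/6J genome, and the alleles that each library carried at the highly variable H2 genes were not analysed here.

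A class I molecule consists of a heavy chain, encoded by H2-K1 or H2-D1, and the light chain β2-microglobulin, encoded by B2m. Its peptides are cut from cytosolic proteins by the proteasome, carried into the endoplasmic reticulum by the Tap1 and Tap2 transporter and loaded with the help of tapasin, encoded by Tapbp. Inflammatory cytokines, interferon-γ above all, are known to replace the catalytic subunits Psmb5, Psmb6 and Psmb7 by Psmb8, Psmb9 and Psmb10, which gives the immunoproteasome, and to raise Nlrc5, a transactivator of class I promoters. In fibroblasts this pathway makes peptides visible to CD8+ T cells.

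In hTNFtg SFs a heavy chain gene, 2 of the 3 immunoproteasome subunits and Tapbp passed the rule upwards over WT. That was 4 of 10 genes, where 3.35% of all genes did, and neither gene of the peptide transporter passed. H2-K1 rose 5.25-fold in hTNFtg SFs, Psmb8 rose 2.5-fold and Psmb10 rose 2.33-fold, all 3 without overlap between the groups. Their adjusted p in limma were 0.0094, 0.159 and 0.297. Tapbp rose by a log2 fold change of 1.06 with overlap, with an adjusted p of 0.591 in limma. With infliximab H2-K1 fell without overlap and Psmb9 fell with overlap. Psmb8 and Psmb10 were lower without overlap, each with a log2 fold change of -0.96 just short of the rule. Lower without overlap with infliximab were 3.44% of all genes and 5.82% of genes with such a mean. In that comparison limma gave no gene of the whole table an adjusted p under 0.05, whereas edgeR called 165 genes, none of the 10 among them, and limma with array quality weights called 65, with Psmb8 and Psmb10 among them. H2-D1, B2m, Tap1, Tap2 and Nlrc5 passed the rule in none of the 3 comparisons with all libraries in.

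Values are normalized counts, rounded by the authors. The estimate of reads below assumed 1 scaling factor per library, which is not given in the sources used here. Reads from the 3′ end do not grow in number with the length of a transcript, so these counts were set side by side between genes without a correction for length. A gene passed the rule when its unadjusted P in limma was under 0.05 and its log2 fold change was at least 1 in size, and P values were adjusted by Benjamini-Hochberg across every gene in the comparison. Fold changes are on the scale of log2 of the normalized count plus 1, with n = 3 libraries per group. The libraries held 3829156 to 9015605 reads by an estimate from the rounded values, except hTNFtg replicate 1, which held 613343. In that library 1 read was worth 6.23 normalized counts and a gene of 3 reads stood at 18.7, so its low values are coarse.

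The 10 genes lie on 3 chromosomes. In mm10, 7 of them are on chromosome 17, and Psmb9, Tap1, Psmb8 and Tap2 stand side by side within chr17:34181988-34216321. H2-K1 is at chr17:33996017-34000333 on the minus strand, H2-D1 at chr17:35262730-35267499 and Tapbp at chr17:33915899-33929288, both on the plus strand. B2m is at chr2:122147686-122153083 on the plus strand, Psmb10 at chr8:105935735-105938444 on the minus strand and Nlrc5 at chr8:94434356-94527272 on the plus strand.

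Promoter windows, from 250 bases before to 50 bases after the start of transcription, were taken from RefSeq (GRCm38.p6) for the 8 genes with an entry, H2-K1, H2-D1, B2m, Tap1, Tapbp, Psmb8, Psmb9 and Psmb10. The 2 heavy chain genes are shown because their RNA levels differed and their windows held the same matches. B2m is shown because its product pairs with both, and Tap1 because its window is shared with Psmb9. All windows are reference sequence, and the promoter alleles that these libraries carried were not analysed. Capitals mark matches, on either strand, to GGGA followed by N, T, N, N and CC (an NF-κB site, where N is any base), AANNGAAA (the core bound by interferon regulatory factors), GAANNGAAA (the same core with 1 letter more, which H2-K1 and H2-D1 hold and which gives their capitals a length of 9), TGACG (a core bound by CREB and ATF factors) and CCAAT (bound by NF-Y). The windows are chr17:34000284-34000583 (minus strand) for H2-K1, chr17:35262844-35263143 (plus) for H2-D1, chr2:122147437-122147736 (plus) for B2m and chr17:34187306-34187605 (plus) for Tap1.
H2-K1: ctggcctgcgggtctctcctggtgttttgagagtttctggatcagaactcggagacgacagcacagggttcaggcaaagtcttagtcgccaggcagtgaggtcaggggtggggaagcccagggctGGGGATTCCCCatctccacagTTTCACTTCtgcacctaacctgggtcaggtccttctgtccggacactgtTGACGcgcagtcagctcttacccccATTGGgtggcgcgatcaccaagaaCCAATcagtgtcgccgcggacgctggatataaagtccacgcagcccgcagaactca
H2-D1: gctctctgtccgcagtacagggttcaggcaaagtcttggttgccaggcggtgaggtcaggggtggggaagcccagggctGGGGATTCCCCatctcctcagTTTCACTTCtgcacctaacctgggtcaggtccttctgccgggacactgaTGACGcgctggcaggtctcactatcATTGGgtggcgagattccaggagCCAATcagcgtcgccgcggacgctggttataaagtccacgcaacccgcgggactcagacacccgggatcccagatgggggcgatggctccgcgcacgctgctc
B2m: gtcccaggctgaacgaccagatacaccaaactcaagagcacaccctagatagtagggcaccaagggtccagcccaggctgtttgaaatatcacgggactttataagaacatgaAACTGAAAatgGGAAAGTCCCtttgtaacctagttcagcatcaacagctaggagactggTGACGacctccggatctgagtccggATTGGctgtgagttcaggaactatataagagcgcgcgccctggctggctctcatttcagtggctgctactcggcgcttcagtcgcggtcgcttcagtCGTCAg
Tap1: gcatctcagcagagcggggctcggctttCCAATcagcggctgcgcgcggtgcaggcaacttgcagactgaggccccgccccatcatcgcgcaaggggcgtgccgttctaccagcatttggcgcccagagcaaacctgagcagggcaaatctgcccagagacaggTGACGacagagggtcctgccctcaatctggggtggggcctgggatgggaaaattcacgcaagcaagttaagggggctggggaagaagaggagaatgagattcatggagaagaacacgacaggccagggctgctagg

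The H2-K1 and H2-D1 windows held the same matches in the same order. Each had GGGATTCCCC on the forward strand and, 1 base upstream, a further match to the NF-κB letters on the reverse strand, then the interferon regulatory factor core on the reverse strand, TGACG, and CCAAT once on each strand. The windows were identical at 232 of 347 aligned positions (66.9%). RefSeq lists a further H2-K1 window, chr17:34000298-34000597, with the same numbers of matches and an identity to H2-D1 of 60.9%. The window nearest to the start of the gene in the deposited tables was printed, a choice made after both were seen.

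The B2m window held the NF-κB letters on the reverse strand, the core on the forward strand, TGACG on each strand and CCAAT on the reverse strand. The 9-letter form GAANNGAAA was searched first and was met in H2-K1 and H2-D1 but not in B2m. The looser AANNGAAA, which is the last 8 letters of that form, was added after B2m was seen to lack a match, so the match of B2m to it was found by loosening the search. Of 32851 RefSeq windows of the same length, 4.16% held the NF-κB letters, 7.52% GAANNGAAA, 23.9% AANNGAAA, 20.8% TGACG and 37.4% CCAAT.

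The starts of Tap1 and Psmb9 lie 226 bases apart on opposite strands, and their windows overlap by 275 bases. Both held TGACG and CCAAT, which are the same bases read from opposite strands, and neither held the NF-κB letters or AANNGAAA. The Tapbp window held CCAAT at 2 positions, and those of Psmb8 and Psmb10 held none of the letters searched. A match is a description of the window and not a site shown to be bound.

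H2-K1 is the heavy chain of one of the classical class I molecules. It stood at 192, 118 and 203 normalized counts in WT replicates 1, 2 and 3, at 934, 730 and 990 in hTNFtg and at 514, 371 and 189 with infliximab. Every hTNFtg library was above every WT library and above every infliximab library. Infliximab replicate 3 lay within the WT range, and the other two lay between WT and untreated hTNFtg.

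In hTNFtg versus WT SFs, H2-K1 had a log2 fold change of 2.39 ± 0.31 (SE), an adjusted p of 0.0094 in limma and a 95% interval of 1.71 to 3.07. It was the sole gene of the 10 with an adjusted p under 0.05, against 0.48% of 28522 genes in either direction. When a library was left out in turn the log2 fold change was between 2.15 and 2.53, and the adjusted p was under 0.05 only without hTNFtg replicate 3 (0.0471) and reached 0.247 without WT replicate 1. It also had an adjusted p under 0.05 in edgeR, a count test run on reads approximated from these values. With the replicate numbers used as a block, limma gave H2-K1 an adjusted p of 0.478 and called 0 of all genes. Infliximab-treated versus untreated hTNFtg SFs gave -1.41 ± 0.36 with an unadjusted P of 0.00169 and an adjusted p of 0.803 in limma, and past the rule with any of the 6 libraries left out. Infliximab-treated hTNFtg versus WT SFs gave 0.99 ± 0.35 with an adjusted p of 0.292 in limma, short of the rule. There H2-K1 did pass in edgeR (1.08, adjusted p of 0.000785) and with array quality weights (1.23). With robust eBayes in limma its adjusted p was 0.00452.

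H2-D1 encodes the other heavy chain. It stood at 315, 578 and 640 normalized counts in WT, at 666, 632 and 813 in hTNFtg and at 576, 595 and 870 with infliximab. The groups overlapped in all 3 comparisons, and WT replicate 1 was the lowest library. The log2 fold change was 0.52 ± 0.33 in hTNFtg versus WT (95% interval -0.22 to 1.25) and -0.07 ± 0.29 with infliximab (-0.70 to 0.57).

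The ratio of H2-K1 to H2-D1 was 0.610, 0.204 and 0.317 in WT, 1.40, 1.16 and 1.22 in hTNFtg and 0.892, 0.624 and 0.217 with infliximab. H2-K1 was the lower of the pair in all WT and infliximab libraries and the higher in all untreated hTNFtg libraries. The difference in log2 ratio was 1.88 in hTNFtg versus WT and -1.34 with infliximab. This ratio was chosen after its values were seen, so it is a description with no test. H2-T24, a class I-like gene also named after its values were seen, split the libraries of each group, at 43, 0 and 0 normalized counts in WT, 62, 78 and 1 in hTNFtg SFs, and 35, 54 and 2 after infliximab. H2-Q5 also varied within groups, at 0, 12 and 19, at 25, 1 and 33, and at 2, 0 and 7. Within WT and within the infliximab group the ratio of H2-K1 to H2-D1 was higher in the libraries with H2-T24 at 35 or more, whereas the 3 hTNFtg libraries had ratios above 1 with H2-T24 both high and near 0. Whether libraries carried different H2 alleles, and the part of that in the H2-K1 values, was not tested. Near-identical stretches can divide reads between class I genes, and of the 451 50-base words in the last 500 bases of the transcript H2-K1 shared 2 with another gene, H2-D1. H2-D1 shared 43 words (9.53%) with 80 genes, and the other 8 genes shared none.

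**Figure D1:**
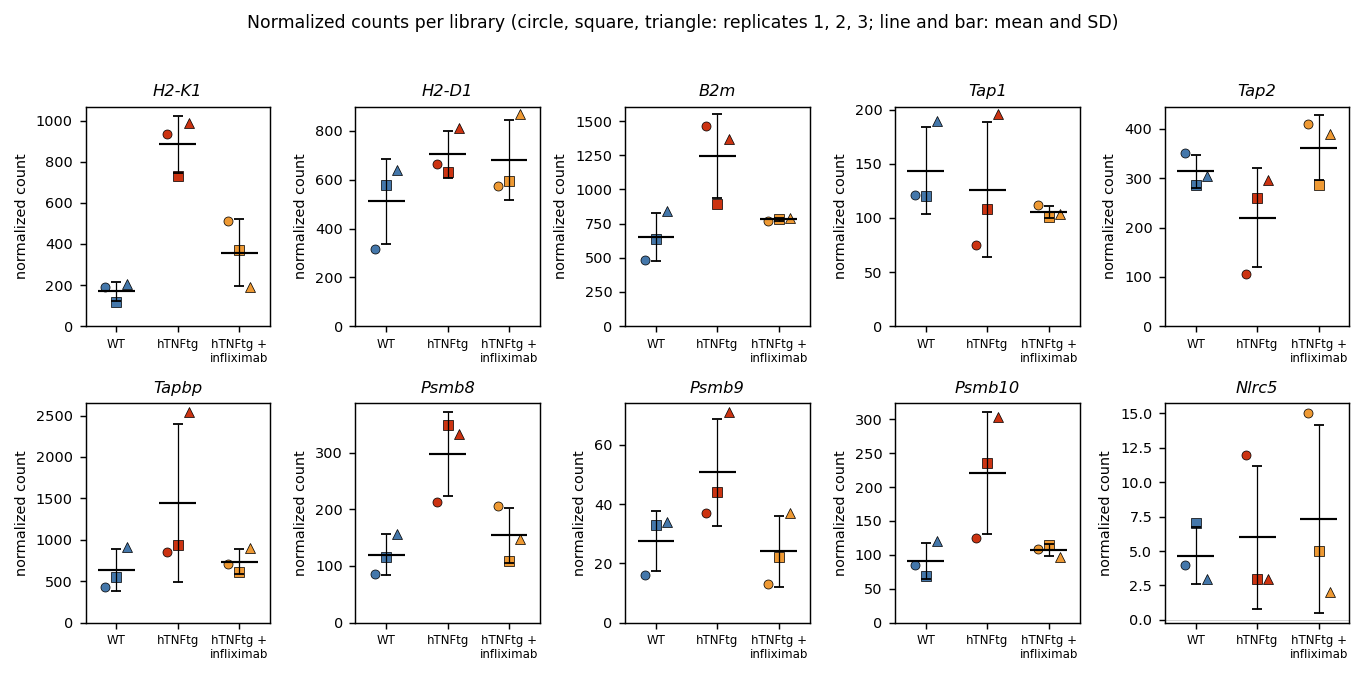
Normalized count of each of the 10 genes (vertical axis) in WT, untreated hTNFtg and infliximab-treated hTNFtg SFs, with a point per library and the mean and SD of 3 libraries. H2-K1 sits at 118 to 203 in WT, 730 to 990 in hTNFtg and 189 to 514 with infliximab, whereas Tap1 and H2-D1 overlap between WT and hTNFtg.

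B2m encodes the light chain that pairs with class I heavy chains. It stood at 484, 636 and 839 normalized counts in WT, at 1464, 895 and 1373 in hTNFtg and at 766, 786 and 791 with infliximab. All hTNFtg libraries were above all WT and all infliximab libraries, and the infliximab libraries lay within the WT range. The log2 fold change was 0.93 ± 0.34 in hTNFtg versus WT, with an adjusted p of 0.430 in limma, and -0.64 ± 0.31 with infliximab, with an adjusted p of 0.803, so B2m did not pass the rule in either. It did pass in hTNFtg versus WT without hTNFtg replicate 2 (1.15) or WT replicate 3 (1.13), and its value was between 0.73 and 1.15 with a library left out in turn. The B2m gene lies inside Patl2 on the opposite strand, and Patl2 was at 0 in every library.

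Tap1 and Tap2 form the transporter that moves peptides into the endoplasmic reticulum. Tap1 stood at 121, 120 and 190 normalized counts in WT, at 75, 108 and 196 in hTNFtg and at 112, 101 and 104 with infliximab. The hTNFtg libraries held both the lowest and the highest value, and the 3 infliximab libraries were all below WT. The log2 fold change of Tap1 was -0.26 ± 0.39 in hTNFtg versus WT (95% interval -1.12 to 0.59), and it turned to 0.05 without hTNFtg replicate 1.

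Tap2 stood at 352, 286 and 304 normalized counts in WT, at 106, 259 and 296 in hTNFtg and at 410, 287 and 390 with infliximab. The lowest value was in hTNFtg replicate 1, where it rested on 17 reads. The log2 fold change of Tap2 was -0.63 ± 0.38 in hTNFtg versus WT and 0.83 ± 0.37 with infliximab, with adjusted p of 0.726 and 0.803 in limma. Without hTNFtg replicate 1 these values were -0.18 and 0.37, and the infliximab value was 1.01 without hTNFtg replicate 2 and 1.11 without hTNFtg replicate 3, both past the rule.

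Tapbp encodes tapasin, which holds empty class I molecules at the transporter. It stood at 434, 552 and 917 normalized counts in WT, at 847, 938 and 2538 in hTNFtg and at 701, 609 and 899 with infliximab. hTNFtg replicate 3 stood far above the other 8 libraries, and hTNFtg replicate 1 lay below WT replicate 3. Tapbp passed the rule in hTNFtg versus WT with a log2 fold change of 1.06 ± 0.45 and an adjusted p of 0.591 in limma. Without hTNFtg replicate 3 the value was 0.56, and the rule was also missed without hTNFtg replicate 1, WT replicate 1 or WT replicate 2. With all libraries in, Tapbp missed the rule with array quality weights (0.795) and among genes with a mean of at least 10 (unadjusted P of 0.0531 in limma). Tapbp overlaps Zbtb22 on the same strand (112 to 233 normalized counts) and the antisense gene Gm19412 (219 to 456), and whether the counting used strand is not given in the sources used here.

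Psmb8, the subunit that takes the place of Psmb5, stood at 85, 116 and 157 normalized counts in WT, at 212, 349 and 332 in hTNFtg and at 205, 108 and 148 with infliximab. Every hTNFtg library was above every WT and every infliximab library. Psmb8 rose in hTNFtg versus WT by a log2 fold change of 1.32 ± 0.34 (95% interval 0.58 to 2.06), with an adjusted p of 0.159 in limma and 0.0289 in edgeR, and it passed the rule with any of the 6 libraries left out. With infliximab the log2 fold change was -0.96 ± 0.33 with an unadjusted P of 0.0109 in limma, just short of the size the rule asks.

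Psmb10, which takes the place of Psmb7, stood at 85, 68 and 120 normalized counts in WT, at 125, 236 and 303 in hTNFtg and at 108, 115 and 97 with infliximab. The groups did not overlap between hTNFtg and either WT or infliximab, but hTNFtg replicate 1, at 20 reads, was close to the highest WT library. Psmb10 rose in hTNFtg versus WT by a log2 fold change of 1.22 ± 0.38, with an adjusted p of 0.297 in limma and 0.0325 in edgeR. It missed the rule without hTNFtg replicate 3 (0.95) and without WT replicate 2 (unadjusted P of 0.0601 in limma). With infliximab the log2 fold change was -0.96 ± 0.35 with an unadjusted P of 0.0155 in limma.

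Psmb9, which takes the place of Psmb6, was the lowest of the 3 immunoproteasome subunits in every library. It stood at 16, 33 and 34 normalized counts in WT, at 37, 44 and 71 in hTNFtg and at 13, 22 and 37 with infliximab. All hTNFtg libraries were above WT, by 3 normalized counts at the closest, which is less than 1 read of hTNFtg replicate 1, and infliximab replicate 3 equalled hTNFtg replicate 1, which rested on 6 reads. The log2 fold change was 0.87 ± 0.47 in hTNFtg versus WT, short of the rule. With infliximab Psmb9 fell by a log2 fold change of -1.11 ± 0.50, with an unadjusted P of 0.0439 and an adjusted p of 0.803 in limma. It kept to the rule only without hTNFtg replicate 1 and without infliximab replicate 3, and missed it without any of the other 4 libraries.

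The constitutive subunits were close to level between hTNFtg and WT SFs. There the log2 fold change was -0.03 ± 0.31 for Psmb5, -0.07 ± 0.34 for Psmb6 and -0.06 ± 0.32 for Psmb7. With infliximab it was 0.38 ± 0.28 for Psmb5, 0.00 ± 0.33 for Psmb6 and 0.35 ± 0.30 for Psmb7, none past the rule, and Psmb5 was higher without overlap, at 250, 235 and 221 normalized counts against 193, 211 and 145. The ratios to Psmb5 and Psmb7 under infliximab therefore hold a higher denominator as well as a lower numerator. The ratio of Psmb8 to Psmb5 was 0.385, 0.806 and 0.793 in WT, 1.1, 1.65 and 2.29 in hTNFtg SFs and 0.820, 0.460 and 0.670 with infliximab. The ratio of Psmb10 to Psmb7 was 0.659, 0.433 and 0.585 in WT, 1.06, 1.25 and 1.84 in hTNFtg and 0.491, 0.561 and 0.574 with infliximab. For both pairs the inducible subunit exceeded its constitutive counterpart in every untreated hTNFtg library and in no other library, but in hTNFtg replicate 1 this rested on 34 against 31 reads for Psmb8 and Psmb5 and on 20 against 19 for Psmb10 and Psmb7.

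The ratio of Psmb9 to Psmb6 was far lower, at 0.0118, 0.0185 and 0.0241 in WT, 0.0351, 0.0296 and 0.0373 in hTNFtg and 0.00933, 0.0157 and 0.0240 with infliximab. In log2 the ratios differed between hTNFtg and WT by 1.35 for Psmb8, 0.94 for Psmb9 and 1.28 for Psmb10, and between infliximab-treated and untreated hTNFtg SFs by -1.34, -1.11 and -1.31. None of these 6 comparisons overlapped, and each had p = 0.1 in a two-sided exact permutation test, the smallest that 3 libraries against 3 allow. Infliximab-treated hTNFtg and WT SFs overlapped in all 3 ratios, with log2 differences of 0.01 for Psmb8, -0.18 for Psmb9 and -0.03 for Psmb10.

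**Figure D2:**
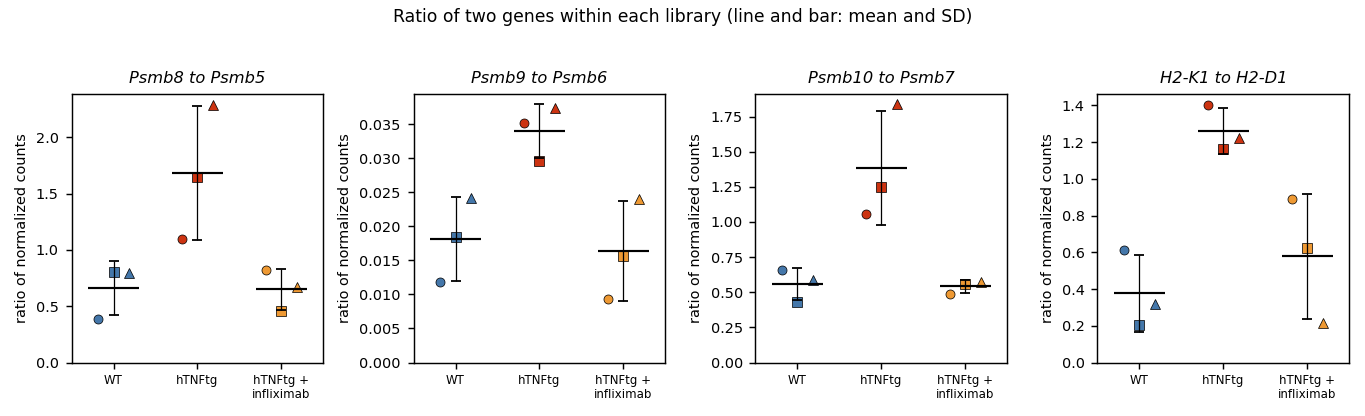
Ratio of the normalized counts of 2 genes within each library (vertical axis) for Psmb8 to Psmb5, Psmb9 to Psmb6, Psmb10 to Psmb7 and H2-K1 to H2-D1, with the mean and SD of 3 libraries. In all 4 panels the untreated hTNFtg libraries lie above all WT and infliximab libraries.

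Psmb9 and Tap1 share their promoter region. The ratio of Psmb9 to Tap1, chosen after its values were seen, was 0.132, 0.275 and 0.179 in WT, 0.493, 0.407 and 0.362 in hTNFtg and 0.116, 0.218 and 0.356 with infliximab. All hTNFtg libraries were above all others, with infliximab replicate 3 close below, and the infliximab and WT libraries overlapped. In hTNFtg replicate 1 the ratio rested on 6 reads of Psmb9 and 12 of Tap1. The difference in log2 ratio was 1.13 in hTNFtg versus WT, given as a description with no test. The reads of the 2 genes come from opposite ends of the region, since each gene is read near its 3′ end.

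Nlrc5 was near the limit of detection. It stood at 4, 7 and 3 normalized counts in WT, at 12, 3 and 3 in hTNFtg and at 15, 5 and 2 with infliximab, from 2 to 14 reads per library. The groups overlapped throughout, and a difference was not detectable at this depth (log2 fold change 0.13 ± 0.86 in hTNFtg versus WT). Nlrc5 was the only gene of the 10 with a mean under 10 normalized counts.

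Of the 10 genes, 8 had a higher and 2 a lower mean log2 level in hTNFtg than in WT SFs. H2-K1, Tapbp, Psmb8 and Psmb10 passed the rule upwards, 4 of 10, where 3.35% of all genes did. H2-K1, B2m, Psmb8, Psmb9 and Psmb10 were higher without overlap, 5 of 10, where 5.63% of all genes and 9.42% of genes with a mean of at least 10 were. In edgeR H2-K1, Psmb8 and Psmb10 had an adjusted p under 0.05, 3 of 10, where 3.21% of all genes had. The median log2 fold change of the 10 genes was 0.90, against -0.003 over all genes tested.

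With infliximab, 8 of the 10 genes were lower and 2, Tap2 and Nlrc5, were higher. H2-K1 and Psmb9 passed the rule downwards, 2 of 10, where 0.936% of all genes did. H2-K1, B2m, Psmb8 and Psmb10 were lower without overlap, 4 of 10, where 3.44% of all genes and 5.82% of genes with a mean of at least 10 were. The median was -0.72, against 0.00 over all genes. limma gave 0 of 28540 genes an adjusted p under 0.05 in this comparison, with 1026 genes at an unadjusted P under 0.05, and edgeR called 165 genes (0.578%), none of the 10 among them. This comparison and that of hTNFtg with WT share the untreated hTNFtg libraries, so a high or low value there enters both with opposite sign.

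In infliximab-treated hTNFtg versus WT SFs none of the 10 genes passed the rule in the main limma fit, where 3.86% of all genes did upwards and 2.95% downwards. None had an adjusted p under 0.05 in that fit, where 0.74% of all genes had. H2-K1 was the 1 gene higher at an unadjusted P under 0.05, where 6.23% of all genes were, and in edgeR, which called 4.69% of all genes, it had an adjusted p of 0.000785. Tap1 was lower without overlap, where 7.07% of all genes were. The median was 0.28, with 8 genes higher and 2 lower.

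**Figure D3:**
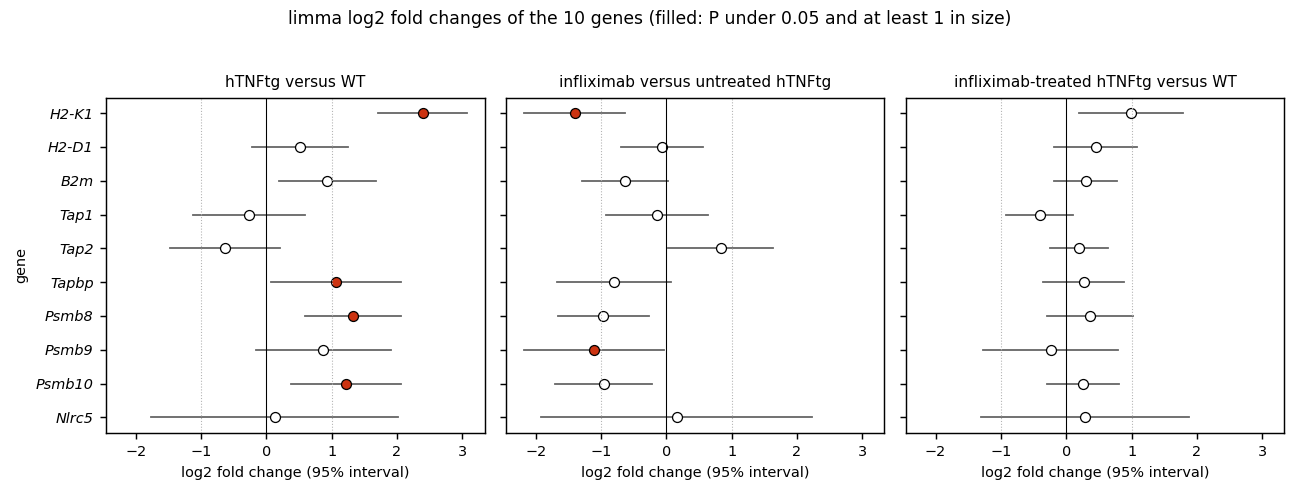
limma log2 fold change (horizontal axis) with its 95% interval for the 10 genes in the 3 comparisons, with filled points past the rule. H2-K1 has the highest value in hTNFtg versus WT, 2.39, and the lowest with infliximab, -1.41, whereas in infliximab-treated hTNFtg versus WT no point is filled.

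Other genes of antigen presentation were counted in lists. Of 22 further class I heavy chain and class I-like genes found, 19 could be tested in hTNFtg versus WT, and H2-Q4 alone passed the rule, upwards, where 3.35% of all genes did, at 14, 4 and 12 normalized counts in WT, 19, 33 and 36 in hTNFtg and 39, 24 and 18 with infliximab. H2-Q4 had a log2 fold change of 1.56 ± 0.65 in hTNFtg and -0.14 ± 0.51 with infliximab. The median of this list was 0.00. Of 16 genes of peptide loading and trimming none passed the rule in hTNFtg versus WT (median 0.00), and in infliximab-treated hTNFtg versus WT Lnpep, an aminopeptidase, rose by 1.56 ± 0.53, 1 of 16 where 3.86% of all genes did. Of the class I heavy chain and class I-like genes 2 passed the rule upwards and 1 downwards in that comparison, where 3.86% and 2.95% of all genes did. H2-Q4 rose by 1.43 ± 0.53, H2-Q6, at 0 in WT and 1 to 4 normalized counts with infliximab, rose as well, and Cd1d1, which presents lipids, fell by 1.01 on the log2 scale (SE 0.33). H2-Q4 and H2-Q6 belong to a family of near-identical copies, so their counts may be uncertain. The words they share with other genes were not counted.

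Among the proteasome genes outside the immunoproteasome, none of 17 further 20S and assembly genes and none of 5 activators and regulators passed the rule in hTNFtg versus WT, with medians of -0.03 and 0.20. Psme1 and Psme2, which form the PA28 activator, had log2 fold changes of 0.45 ± 0.38 and 0.43 ± 0.31. Of 21 genes of the 19S particle 1, Psmd10, rose, by 1.23 ± 0.33, where 3.35% of all genes passed the rule upwards, and the median was 0.15. Of the same 21 genes, all with a mean of at least 10, 5 were higher in hTNFtg than in WT without overlap. The share was 5.63% over all genes and 9.42% over genes with a mean of at least 10. With infliximab 3, Psmd1, Psmc4 and Psmd10, were lower without overlap, where 3.44% of all genes and 5.82% of genes with such a mean were. Psmd10 stood at 129, 169 and 181 normalized counts in WT, 268, 348 and 547 in hTNFtg SFs, and 233, 212 and 265 after infliximab. Psma6, a 20S subunit, was likewise above WT and infliximab in every untreated hTNFtg library, with log2 fold changes of 0.72 ± 0.35 and -0.89 ± 0.29, short of the rule.

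Of 24 transcription factors known to act on class I promoters or on related genes 4 passed the rule in hTNFtg versus WT, all upwards, where 3.35% of all genes did. Nfkb1 and Relb, subunits of NF-κB, rose by log2 fold changes of 1.18 ± 0.45 and 1.03 ± 0.38. Irf8, an interferon regulatory factor of myeloid cells, rose by 3.16 ± 0.93, and Prdm1, a repressor, rose by 2.05 ± 0.79. Irf1, an interferon regulatory factor induced by interferon-γ, did not pass (0.61 ± 0.37).

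Nfkb1 stood at 19, 32 and 34 normalized counts in WT, 100, 45 and 57 in hTNFtg and 33, 44 and 36 with infliximab. Relb stood at 92, 121 and 47 in WT, 206, 156 and 141 in hTNFtg and 129, 113 and 112 with infliximab. For both genes hTNFtg was above both other groups without overlap, and with infliximab neither passed the rule.

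Of 12 genes of interferons, their receptors and kinases, Ifngr2, a chain of the interferon-γ receptor, rose in hTNFtg versus WT by a log2 fold change of 1.81 ± 0.35 (adjusted p of 0.0560 in limma), 1 of 11 tested where 3.35% of all genes rose. Socs1, an inhibitor of this pathway, rose with infliximab by 1.62 ± 0.56, from 19, 22 and 6 normalized counts to 38, 53 and 43, where hTNFtg replicate 1 rested on 3 reads. It was 1 of 10 tested, and 1.49% of all genes passed the rule upwards with infliximab. Ifnb1 was at 0 in every library, and Ifng was at 0 in all but WT replicate 3, at 1.

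**Figure D4:**
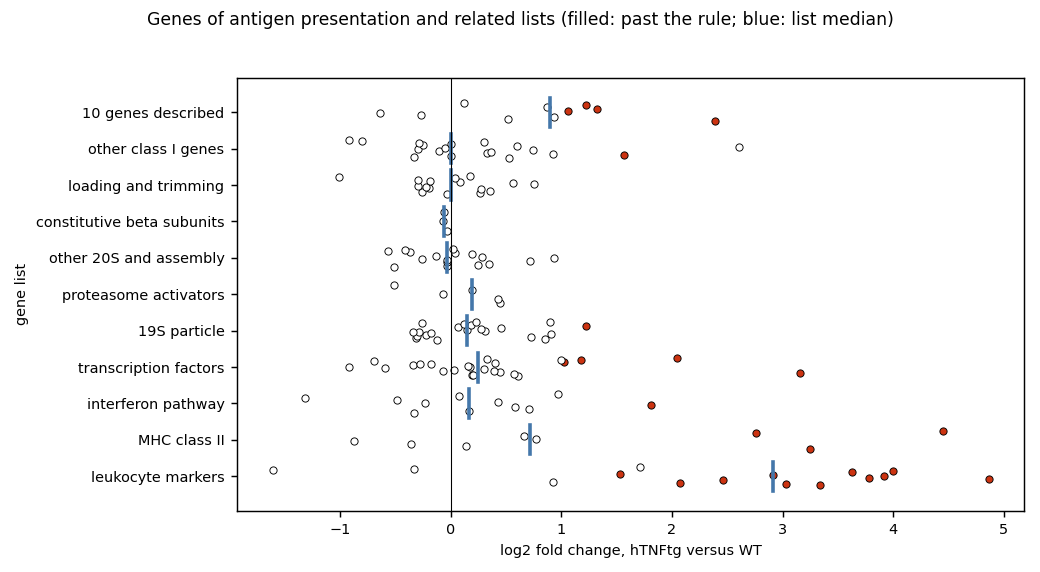
limma log2 fold change in hTNFtg versus WT (horizontal axis) of the genes tested in each list, with filled points past the rule and a blue bar at the list's median. The 10 genes have a median of 0.90 and the constitutive β subunits -0.06, and the leukocyte markers stand highest at 2.91.

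The summed markers of leukocytes were higher in both hTNFtg groups than in WT although CD45+ cells had been depleted. Their sum over 20 genes was 248 to 1099 normalized counts in WT, 4081 to 8693 in hTNFtg and 2633 to 5253 with infliximab. In hTNFtg versus WT 11 of 15 tested were past the rule upwards, where 3.35% of all genes were. Infliximab-treated hTNFtg versus WT SFs also gave 11 of 15, where 3.86% of all genes were. The median log2 fold change of the list was 2.91 and 2.83 in these comparisons. Lyz2, lysozyme of myeloid cells, stood at 43, 277 and 95 in WT, 5356, 2284 and 2356 in hTNFtg and 2388, 1277 and 2672 with infliximab. Itgam, Fcer1g and Laptm5, further leukocyte genes, rose in hTNFtg versus WT by log2 fold changes of 2.91 ± 0.51, 3.92 ± 0.69 and 3.62 ± 0.71, with adjusted p of 0.0322, 0.0334 and 0.0576 in limma. In infliximab-treated hTNFtg versus WT SFs Fcer1g, Cd68 and Tyrobp rose by 3.17 ± 0.44, 2.83 ± 0.51 and 3.67 ± 0.75. Ptprc, which encodes CD45, stood at 0, 3 and 0 in WT, 31, 9 and 12 in hTNFtg and 28, 8 and 22 with infliximab. Of the 20 genes 5 were at 0 in every library, among them Cd3e and Cd8a of T cells, Cd79a of B cells and S100a9 of neutrophils. Cd4 stood at 14, 2 and 4 in WT and at 0 to 6 in the other libraries, and S100a8, the partner of S100a9, at 0, 0 and 1 in WT, 0, 9 and 6 in untreated hTNFtg SFs, and 3, 0 and 1 after infliximab.

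The class II genes, which mark professional antigen presenting cells, gave 3 of 8 tested past the rule upwards in hTNFtg versus WT, where 3.35% of all genes were, and none downwards. H2-DMb1, the most abundant of the list in most libraries, stood at 443, 983 and 989 normalized counts in WT, 137, 444 and 1149 in hTNFtg and 399, 413 and 547 with infliximab, a log2 fold change of -0.87 ± 0.63 in hTNFtg versus WT. Ctss, which trims the class II chaperone, stood at 1, 37 and 11 normalized counts in WT, 461, 140 and 145 in hTNFtg and 181, 113 and 156 with infliximab. H2-Ab1 stood at 1, 0 and 0, at 56, 9 and 2 and at 25, 16 and 2, and Ciita, the class II transactivator, was at 0 except for 1 in hTNFtg replicate 3. Leukocytes carry class I and immunoproteasome genes as well, and their part in the values of the 10 genes was not tested. In bulk RNA, more cells of a type and more RNA per cell cannot be told apart.

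The sum over the 10 genes was 2088 to 3407 normalized counts in WT, 4194 to 6915 in hTNFtg and 2999 to 3527 with infliximab. With infliximab the median leukocyte sum was 4733 against 6228 in untreated hTNFtg SFs, with overlap. Of 14 leukocyte markers tested 11 were lower with infliximab (median log2 fold change -0.33), and 1, Itgam, passed the rule downwards, where 0.936% of all genes did. The sum over 13 SF markers was 43214 to 53565 in WT, 38805 to 46704 in hTNFtg and 36576 to 42701 with infliximab, most of it from Col1a1 and Col1a2. Of these 13 genes 2 passed the rule upwards in hTNFtg versus WT, where 3.35% of all genes did, and 1 downwards, where 3.04% did. Pdpn, which encodes podoplanin, rose by 2.01 ± 0.42, from 941, 982 and 852 normalized counts in WT to 1987, 4695 and 5582 in hTNFtg, with 2862, 2460 and 2772 after infliximab. Cd55 rose by 1.42 ± 0.64, and Lum, which encodes lumican, fell by 1.69 on the log2 scale (SE 0.46), from 284, 990 and 1158 to 193, 217 and 230. Of 7 endothelial markers 6 were at 6 normalized counts or less in every library. The exception was Egfl7, at 280, 287 and 295 in WT, 106, 179 and 236 in hTNFtg and 226, 178 and 236 with infliximab, lower without overlap in both hTNFtg groups and short of the rule.

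**Figure D5:**
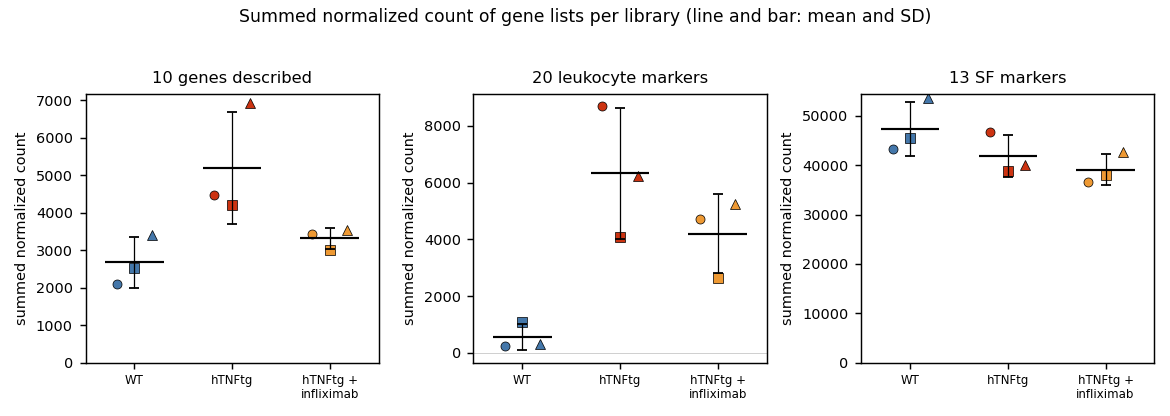
Summed normalized count per library (vertical axis) of the 10 genes, of 20 leukocyte markers and of 13 SF markers, with the mean and SD of 3 libraries. The leukocyte sum is 248 to 1099 in WT, 4081 to 8693 in untreated hTNFtg SFs, and 2633 to 5253 after infliximab.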

How the data were processed

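SFs were sequenced with a QuantSeq 3′ kit on an Ion Proton. Per the methods, the authors mapped reads with TopHat2 and then Bowtie2 and counted them with GenomicRanges. The counts were then normalized and tested with DESeq through metaseqR. The methods name DESeq for the test and no method for the normalization, and versions are not given in the sources used here. The deposited score is the normalized count per gene and library, rounded by the authors. In hTNFtg replicate 1 the deposited signal is whole reads times a factor, and 99.91% of its values were given back exactly from the recovered reads. In the other libraries reads were approximated in the same way (99.96% or more given back, which tests nothing where a read is worth under 1 normalized count). The design assumed normalized counts throughout and was kept. The 24 per-sample columns of log2 and rpgm values were not used, nor were the authors' own fold changes and P values.

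limma 3.58.1 (R 4.3.3, eBayes with trend) was run on log2 of the normalized count with 1 added. Each fit took the 6 libraries it compared, and genes at 0 in all of them were left out. On simulated data for hTNFtg versus WT (27032 genes, 200 changed 4-fold) it found 12.5% of changed genes by adjusted p with 0 unchanged genes, and 93.5% by the rule together with 846 unchanged genes. edgeR 4.0.16 found 56% with 4 unchanged genes, and on the real libraries called 915, 165 and 1324 genes in hTNFtg versus WT, infliximab versus untreated and infliximab-treated versus WT, against 137, 0 and 209 for limma. The simulation gave every gene the same dispersion, not estimated from these libraries, so the shares found hold for that setting alone. Alternatives were other pseudocounts (0.5 and 5), a mean of at least 10, median ratio rescaling, array quality weights, robust eBayes, 1 fit of all 9 libraries, edgeR, a replicate block and leaving out each library.

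The genes, lists, ratios and promoter motifs were chosen with earlier results of these data known. All 10 genes are named, with Psmb5, Psmb6, Psmb7, Psme1, Psme2 and Irf1, and of each further list up to 4 genes past the rule with the smallest P and a mean of at least 10. Further leukocyte, endothelial, proteasome and class I and II genes outside this rule were chosen after their values were seen, to show which markers are absent or go the other way. Some items are not reported here. For 1 listed symbol with 2 rows the row with the higher mean was used. P-values measure the spread between these libraries.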

Additional observations from a re-analysis of the deposited data

How the results depend on the processing

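In hTNFtg versus WT the number of the 10 genes past the rule was 4, and 2 to 5 with a library left out. H2-K1 and Psmb8 were among them each time, and the number was 2 without hTNFtg replicate 3 or WT replicate 2. Over all genes the upward calls were 956, against 691 to 1510 with a library left out. They were 1186 without hTNFtg replicate 3 and 691 without WT replicate 2. Tapbp also missed the rule with array quality weights and among genes with a mean of at least 10. The number with an adjusted p under 0.05 was 1, against 3 with array quality weights, 3 in edgeR, and 0 to 1 with a library left out, while over all genes it was 137, against 1004, 915 and 1 to 44. With infliximab the number past the rule was 2, against 4 with array quality weights, 3 in edgeR (H2-K1, Psmb9 and Psmb10), 1 with a pseudocount of 5, and 2 to 4 with a library left out (4 without hTNFtg replicate 1). Without hTNFtg replicate 2 or 3 the 2 genes were H2-K1, lower, and Tap2, higher. Over all genes the downward calls were 267, against 1390 with array quality weights, 711 in edgeR, 132 with a pseudocount of 5 and 930 without hTNFtg replicate 1. The number with an adjusted p under 0.05 was 0, against 2 with array quality weights (Psmb8 and Psmb10), where all genes gave 65. In infliximab-treated hTNFtg versus WT 0 of the 10 genes passed the rule. The number was 1 with array quality weights, 1 in edgeR, and 0 to 1 with a library left out. Over all genes the upward calls were 1090, against 1319, 1253 and 957 to 1361 in these settings. Of the 10 genes 0 had an adjusted p under 0.05, against 1 in edgeR and 1 with robust eBayes. Over all genes that number was 209, against 1324 and 1182. The gene was H2-K1 in each case. The cause of these differences was not tested.

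The replicate numbers were also used as a block. Libraries of the same number did not all deviate together (correlations over 13600 genes of 0.292, -0.14 and 0.353 in hTNFtg versus WT, 0.0698, 0.197 and 0.265 with infliximab and 0.102, -0.147 and 0.0125 in infliximab-treated versus WT). Whether they share more than a number is not given in the sources used here. With the replicate block 0 of the 10 genes had an adjusted p under 0.05 in hTNFtg versus WT, where H2-K1 was at 0.478 and 0 of all genes were called, and the same 4 passed the rule.

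Small values changed sign. Nlrc5 in hTNFtg versus WT was -0.45 with array quality weights, -0.08 in edgeR and -0.44 to 0.41 with a library left out. H2-D1 with infliximab was 0.00 with array quality weights and -0.26 to 0.04 with a library left out. Leaving out a library also gave -0.63 to 0.05 for Tap1 in hTNFtg versus WT and -0.46 to 0.23 with infliximab, -0.48 to 0.73 for Nlrc5 with infliximab and -0.36 to 0.85 in infliximab-treated versus WT, and -0.60 to 0.12 for Psmb9 there. In that comparison the log2 ratio ran from -0.34 to 0.24 for Psmb8 to Psmb5, -0.49 to 0.16 for Psmb9 to Psmb6 and -0.20 to 0.10 for Psmb10 to Psmb7. Depth limits Nlrc5 and Psmb9 most. For the promoters, 2 choices were added after the sequences were seen, the H2-K1 window (66.9% identity to H2-D1, or 60.9% with the first listed window) and the letters AANNGAAA (3 of 8 windows, or 2 with GAANNGAAA).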
